A study of Drosophila melanogaster with 2 samples.

Results

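The hairpins mir-317, mir-277 and mir-34 of Drosophila melanogaster lie next to each other on chromosome arm 3R, and the small RNAs cut from them are described here in fly heads with and without a sedating exposure to ethanol vapour. The members were all known mature miRNAs named for one of these hairpins in the deposited count tables. This gave 6 mature sequences, a 5p and a 3p arm from each of the 3 hairpins, of 240 known mature sequences listed in at least one library. All 6 were listed in both libraries with at least 100 reads over the pair, the minimum for a comparison, which 168 sequences passed.

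Heads came from 3 to 5 day old adult females of Canton-S, a wild-type strain, with about 180 flies pooled in each sample. The control flies stood in an ethanol-free air stream for 45 minutes. The ethanol flies received ethanol-saturated air for 15 minutes, by which time all were sedated, and ethanol-free air for the following 30 minutes. Each group had 1 library, so no value has a replicate check, no test of the treatment was possible, and differences between the libraries cannot be told apart from differences between the treatments.

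A miRNA hairpin is cut by Drosha and Dicer into a short duplex of its 5p and 3p arms; an Argonaute protein usually keeps one arm, the guide, and the other is degraded. Bases 2 to 8 of the guide, the seed, pair with target messenger RNAs and lower their output. In flies miR-34-5p is known for its part in brain ageing, where it represses the ecdysone-induced gene Eip74EF, and miR-277-3p for control of branched-chain amino acid breakdown and lifespan. miR-317-3p is known in flies for effects on the female response to mating and on Toll immune signalling.

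In the annotation, which is of the later assembly BDGP6, the order along the arm is mir-317, mir-277, mir-34, all on the plus strand. mir-277 and mir-34 lie in exons of the long noncoding gene lncRNA:CR43459, whose RefSeq synonyms name it as the primary transcript of both. Of its 3 annotated transcripts, 1 spans both hairpins, another spans mir-277 but not mir-34, and the third ends before either. mir-317 lies before this gene, with no annotated host, and Fmr1, which encodes the fly fragile X protein, follows on the minus strand. Because the authors' build was BDGP5, no coordinates are given.

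The 6 mature sequences are shown first because each value below belongs to one of them. They are given 5′ to 3′ as deposited, with T for U, and capitals mark the seed.
dme-miR-34-5p: tGGCAGTGtggttagctggttgtg
dme-miR-34-3p: cAGCCACTatcttcactgccgcc
dme-miR-277-3p: tAAATGCActatctggtacgaca
dme-miR-277-5p: cGTGTCAGgagtgcatttgca
dme-miR-317-3p: tGAACACAgctggtggtatccagt
dme-miR-317-5p: tGGGATACaccctgtgctcgct
No other known product in the files had the seed of any of the 6. The closest known sequence to any of them was 8 edits away, and so was the closest of the 99 candidate miRNAs, so no near-identical copy in these files could have shared their reads. The deposited lengths, 21 to 24 nt, matched those of the annotated mature intervals for all 6.

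The 3 arms with the most reads of their hairpins share no seed but do share a run of 5 bases, shown in capitals below because it is the longest common to all 3.
dme-miR-34-5p: tggcagtgtggttagCTGGTtgtg
dme-miR-317-3p: tgaacacagCTGGTggtatccagt
dme-miR-277-3p: taaatgcactatCTGGTacgaca
The run CTGGT starts at base 16 of miR-34-5p, base 10 of miR-317-3p and base 13 of miR-277-3p, outside the seed in each. It occurred in 6 of the 240 known sequences (2.50%), the other 3 being miR-12-5p, miR-133-5p and miR-283-5p. Its reverse complement ACCAG occurred in 2 (0.833%), neither of them a member. The match was found by searching these sequences and is a description only.

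The control library held 13692046 reads of known miRNAs out of 17337082 in all, and the ethanol library 13128478 out of 17600983. Levels below are CPM, reads per 1000000 reads of known miRNAs, and ratios are ethanol over control. The 95% intervals cover counting error only, and treat reads as independent. PCR reads without molecular identifiers are not independent molecules, so the intervals can be too narrow even for that error. As a check of the head label, the neuronal miR-124-3p was present at 8113 CPM in the control library and 4205 in the ethanol library, and miR-1000-5p, another neuronal product, at 418 and 698. The muscle marker miR-1-3p stood far above both, at 312711 and 300812 CPM. Of 10 listed markers of gut, abdomen and gonad, 6 were listed in both libraries, and the list summed to 139 and 151 CPM. The gut marker miR-281-2-5p held most of that sum, at 120 and 127 CPM. The gonad markers miR-310-3p (8 and 25 reads) and miR-312-3p (58 and 90) were higher in the ethanol library. miR-311-3p was listed there only, with 9 reads. The other gut markers and miR-iab-4-5p were slightly lower there. miR-iab-4-3p, miR-iab-8-5p and miR-313-3p were listed in neither. RNA integrity numbers were 6.80 (control) and 6.40 (ethanol), per the labels. The part of the lower miR-124-3p level and of RNA integrity in the results below was not tested, and in whole heads fewer cells of a type and less RNA per cell cannot be told apart.

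Together the 3 hairpins took 11.2% of the known miRNA reads of the control library and 8.98% of those of the ethanol library, or 112079 and 89806 CPM. The sum was 1.25-fold lower in the ethanol library (95% interval 1.245 to 1.251). That value was carried by one product, miR-34-5p, which supplied 91.9% (control) and 89.7% (ethanol) of the reads of the 3 hairpins. Without it the other 5 products summed to 9086 and 9218 CPM, a ratio of 1.01 (1.006 to 1.023). As a log2 ratio this is 0.021, smaller than the shift of -0.082 that the change from CPM to the authors' RPM gives every product.

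None of the 6 products differed 2-fold in CPM, where 3.57% of all 168 products did (6 of 168), 2.38% being higher and 1.19% lower in the ethanol library. A ratio of 1 lay outside the counting interval for all 6, as it did for 75.0% of the 168, so at this depth an interval that excludes 1 is common. All 3 products of the 3p arms had an interval above 1, against 49.4% of the 85 compared 3p products. All 3 products of the 5p arms had an interval below 1, against 43.4% of the 83 compared 5p products. The median log2 ratio of the 6 was -0.10, with a range of -0.99 to 0.41, beside a median of -0.020 over the 168. The signs of the 6 ratios were the same under every scaling tried.

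**Figure D1:**
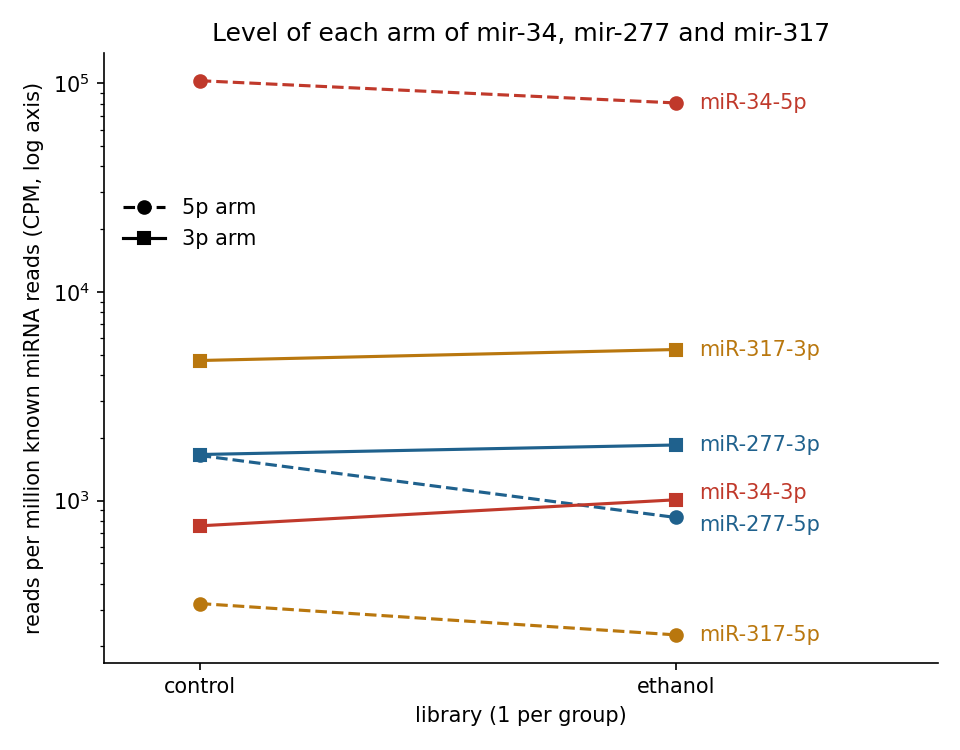
Level of each arm in the control and the ethanol library, in CPM on a log axis, with 1 library per group and so no error bars; dashed lines and circles are 5p arms, solid lines and squares 3p arms. All 3 lines of 5p arms run downwards and all 3 of 3p arms upwards, and miR-277-5p, level with miR-277-3p in the control, lies below miR-34-3p in the ethanol library.

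mir-277 had the largest difference of the 3 hairpins, and it lay in the 5p arm. dme-miR-277-5p, the arm opposite the known regulator, had 22553 reads in the control library and 10907 in the ethanol library, or 1647 and 831 CPM. It was 1.98-fold lower in the ethanol library (1.94 to 2.03), a log2 ratio of -0.99. This was the third lowest log2 ratio of the 168 products and the lowest of the 58 with at least 10000 reads over both libraries. The call at 2-fold depended on the scaling: with the authors' RPM the log2 ratio was -1.07, and with edgeR's TMM factors -1.02, both past 2-fold. With RPM 8 of the 168 products were past 2-fold either way (4 lower), and with TMM 7 of 168 (3 lower). By abundance it ranked at place 32 in the control library and 45 in the ethanol library.

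dme-miR-277-3p, the arm that represses genes of branched-chain amino acid breakdown, had 22783 reads in the control library and 24268 in the ethanol library, or 1664 and 1849 CPM. The ratio was 1.11 (1.09 to 1.13), so the arms of this hairpin lay on opposite sides of 1, as they did in all 3 hairpins and in 49.2% of the 61 hairpins with both arms compared. The 3p arm made up 50.3% of the hairpin's reads in the control library (exact binomial 95% interval 49.8 to 50.7%) and 69.0% in the ethanol library (68.5 to 69.5%). The ratio of 3p to 5p reads was 2.20-fold higher in the ethanol library (2.14 to 2.27), a value that no scaling of the libraries can move. In the control library mir-277 had the most even arms of these 61 hairpins; only 4 of the 61 had shares within 10 points of each other. Summed over both arms, mir-277 stood at 3311 and 2679 CPM, 1.24-fold lower in the ethanol library (1.22 to 1.25).

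The predicted duplex of the mir-277 arms is shown because it was paired from the first base of each arm. The fold used the deposited arms alone, without the loop, and capitals mark bases paired with the other arm.
dme-miR-277-5p: CGTGTCAGGAGTGCATTTGca
dme-miR-277-3p: TAAATGCACTaTCTGGTACGaca
The duplex held 19 base pairs, with a predicted free energy of -21.8 kcal/mol, and no base among the first 8 of either arm was left unpaired. The mir-34 duplex held 18 pairs at -26.2 kcal/mol, with 1 base unpaired in the first 8 of miR-34-5p and 0 in those of miR-34-3p. The mir-317 duplex held 16 pairs at -19.8 kcal/mol, with 2 bases unpaired in the first 8 of each arm. These are predictions from sequence and no measurement of the duplexes was made.

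mir-34 was by far the most abundant of the 3 hairpins, through its 5p arm. dme-miR-34-5p, the brain ageing regulator, had 1410181 reads in the control library and 1057999 in the ethanol library, or 102993 and 80588 CPM, and ranked at place 4 in both. It was 1.28-fold lower in the ethanol library (1.275 to 1.281), a log2 ratio of -0.35, below which lay 32 of the 168 products.

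dme-miR-34-3p, the arm that is mostly degraded, had 10370 and 13253 reads, or 757 and 1009 CPM, a ratio of 1.33 (1.30 to 1.37). It made up 0.730% of the hairpin's reads in the control library (0.716 to 0.744%) and 1.24% in the ethanol library (1.22 to 1.26%). For each miR-34-3p read there were 136 miR-34-5p reads in the control library and 79.8 in the ethanol library, a 1.70-fold shift towards 3p (1.66 to 1.75). miR-34-5p is known in flies to be trimmed at its 3′ end by the exonuclease Nibbler; the sources used here do not give how reads with different ends were counted.

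mir-317 was the only one of the 3 hairpins whose summed level was higher in the ethanol library, at 5017 and 5529 CPM (ratio 1.10, 1.09 to 1.11). The size of this log2 ratio, 0.14, depended on the scaling. RPM shifts every product by -0.082, and a total without the products above 10% of reads by -0.12. dme-miR-317-3p had 64300 reads in the control library and 69599 in the ethanol library, or 4696 and 5301 CPM, a ratio of 1.13 (1.12 to 1.14). It ranked at place 16 in the control library and 13 in the ethanol library. dme-miR-317-5p, its rarer arm, had 4399 and 2985 reads, or 321 and 227 CPM, 1.41-fold lower in the ethanol library (1.35 to 1.48). The 3p share of the hairpin was 93.6% in the control library (93.4 to 93.8%) and 95.9% in the ethanol library (95.7 to 96.03%), a 1.60-fold shift towards 3p (1.52 to 1.67).

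**Figure D2:**
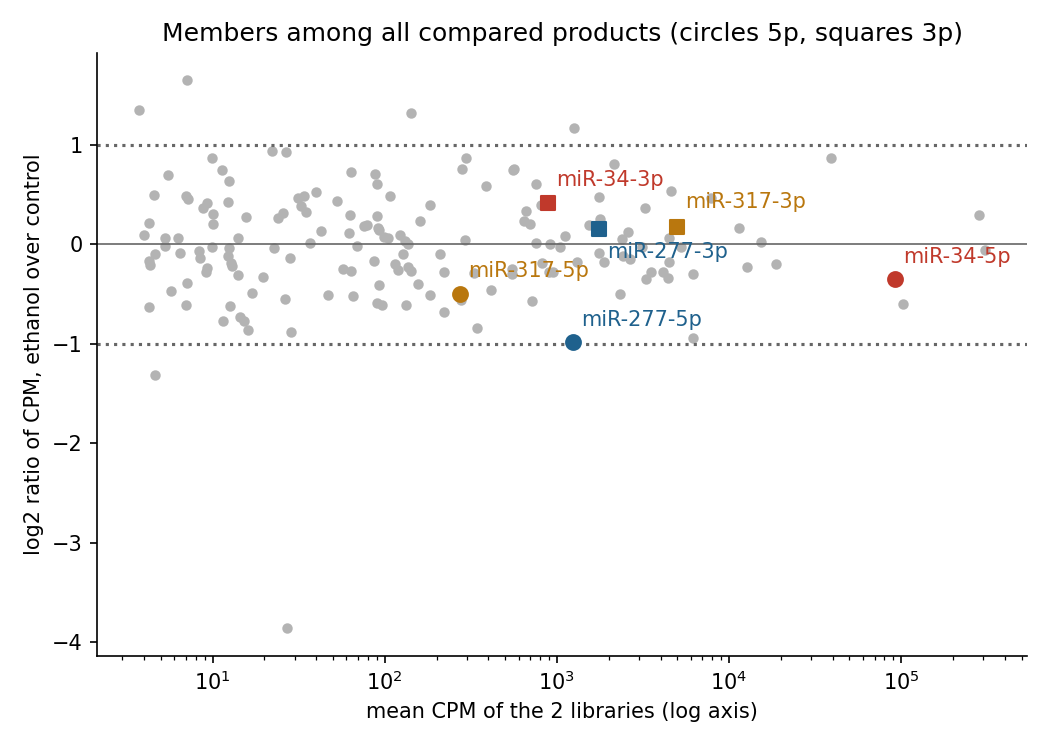
Log2 ratio of CPM, ethanol over control, against mean CPM of both libraries on a log axis for the 168 compared products; coloured circles are 5p and coloured squares 3p arms of the 3 hairpins, grey points the other products, and dotted lines mark 2-fold. miR-277-5p sits at -0.99, just inside the lower line, while the other 5 lie between -0.50 and 0.41.

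All 3 hairpins shifted towards the 3p arm, although the arm with more reads was 5p in mir-34 and 3p in mir-317. The counting interval showed a shift towards 3p in 41.0% of the 61 hairpins, so this direction was common. A 3p interval above 1 together with a 5p interval below 1, seen in all 3, was seen in 23.0% of the 61 hairpins. From the largest shift towards 3p downwards, mir-277 stood at place 7 of 61, mir-34 at place 11 and mir-317 at place 14. mir-277 was the only one of the 3 past 2-fold towards 3p, which 11.5% of the 61 hairpins were (7 of 61). Its log2 shift of 1.14 was 0.60, no longer past 2-fold and below the 0.64 of mir-317, in the comparison with products of like guanine share given below. The median log2 shift over the 61 was 0.11, against 1.14 for mir-277, 0.77 for mir-34 and 0.67 for mir-317.

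**Figure D3:**
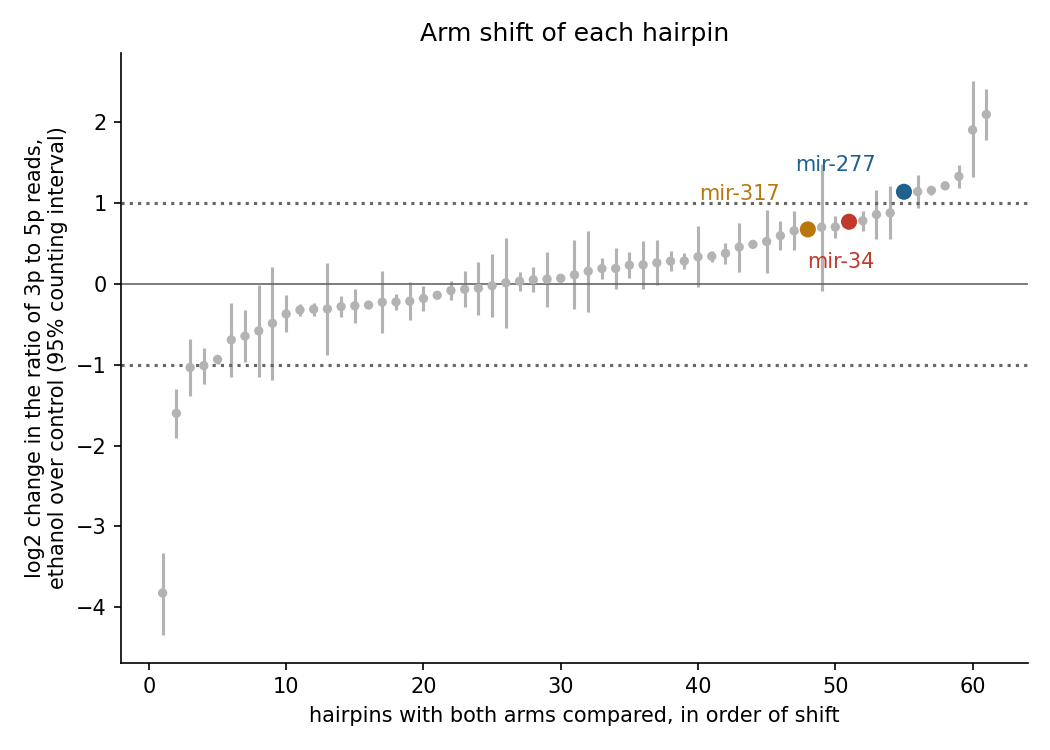
Log2 change in the ratio of 3p to 5p reads between the libraries for the 61 hairpins, in order of size, with 95% counting intervals as bars; 0 means no change and dotted lines mark 2-fold. mir-277 at 1.14, mir-34 at 0.77 and mir-317 at 0.67 all lie in the upper part of the order, with hairpins on either side of each.

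Relative to one another, the 2 arms miR-317-3p and miR-277-3p kept almost the same ratio between the libraries. mir-317 lies outside the annotated primary transcript of mir-277. There were 2.82 miR-317-3p reads for each miR-277-3p read in the control library and 2.87 in the ethanol library, a fold of 1.02 whose interval held 1 (0.995 to 1.04). Of the 167 other compared products, 5 (2.99%), miR-317-3p among them, had a log2 ratio as close to that of miR-277-3p. Summed over both arms, however, mir-277 and mir-34 had log2 ratios of -0.31 and -0.35, and mir-317 one of 0.14. By arm, miR-34-5p, which can come from the same annotated transcript as miR-277-3p, had a different ratio to that arm in each library. Pairs with miR-34-5p set a 3p arm against a 5p arm. Every 3p member was higher and every 5p member lower in the ethanol library. For each 1000 miR-34-5p reads there were 16.2 miR-277-3p reads in the control library and 22.9 in the ethanol library, 1.42-fold more (1.39 to 1.45). The corresponding numbers of miR-317-3p reads were 45.6 and 65.8, 1.44-fold more (1.43 to 1.46). These pair values depended on the guanine comparison given below, under which the log2 change of miR-277-3p over miR-34-5p went from 0.51 to -0.071, turning its direction, and that of miR-317-3p over miR-277-3p from 0.023 to 0.51. Reads of different miRNAs are captured unequally in library making, so these numbers describe each pair between the libraries and are no molar ratios.

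The products most like the abundant arms were sought among products of other hairpins within 4-fold of the same mean CPM. Those with the nearest log2 ratio were taken. Members were left out of this search, so miR-317-3p and miR-277-3p, 0.023 apart in log2, do not appear for each other. With only 2 libraries the measure is a single difference per product. Of 30 products in the range of miR-317-3p, the nearest were miR-8-5p, miR-999-3p and miR-995-3p, at most 0.049 away in log2. Of 42 in the range of miR-277-3p, the nearest were miR-995-3p, miR-999-3p and miR-7-5p, at most 0.047 away. Only 4 products were in the range of miR-34-5p. The nearest of them, let-7-5p, was 0.25 away with a log2 ratio of -0.60, followed by miR-1-3p at 0.30 away and miR-184-3p at 0.65.

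Other fly miRNAs tied to ageing, metabolism and insulin signalling were set beside the members as a list of 9 hairpins (let-7, mir-100, mir-125, mir-14, mir-8, mir-33, mir-278, mir-305 and bantam). All 18 of their arms were compared, and 0 differed 2-fold in either direction, beside 3.57% of the 168 products. The interval lay above 1 for 5 of the 18 and below 1 for 12, beside 36.9% and 38.1% of the 168, and held 1 for 1. The median log2 ratio was -0.22, with a range of -0.60 to 0.73, against -0.020 over the 168 products. let-7-5p, the timing miRNA that is also linked to lifespan, was both the most abundant product of the list and its lowest, with 123536 and 81419 CPM. let-7-3p was the farthest from 1, with 653 and 1037 reads. In let-7, as in mir-34, the abundant 5p arm was thus lower and the rare 3p arm higher. The list was split in this shift: mir-125, mir-100, mir-305, bantam and mir-8 shifted towards 5p instead, with log2 shifts from -0.94 to -0.14. The remaining hairpins mir-14, mir-278 and mir-33 stood slightly on the 3p side, at 0.069, 0.051 and 0.032. Among these, the counting interval excluded no change for mir-14 alone. bantam-3p, a growth and survival miRNA, had 37159 and 25225 reads and a ratio of 0.71 (0.70 to 0.72), and miR-125-5p of the let-7 transcript had 20143 and 26857 reads and a ratio of 1.39 (1.37 to 1.42); both were named after their values were seen.

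The guanine share of the mature sequence moved with the ratio across the 168 products (Spearman's rho = -0.50, a description over products that share the same pair of libraries), and its part in the members' values was not tested. The 5p arms held more guanine than the 3p arms in mir-34 (45.8% against 13.0%) and mir-277 (33.3% against 17.4%), but not in mir-317 (27.3% against 29.2%). Beside each member stands the median of the 20 or more products nearest to it in guanine share, a comparison chosen after the data were seen. For miR-277-5p that median was -0.25, and all 23 of those products had a higher log2 ratio than its -0.99. For miR-34-5p the median was -0.28, close to its own -0.35, and 10 of the 25 products were lower. For miR-317-3p the median was -0.20, against 0.17 for the product itself, and 18 of 22 were lower. For miR-277-3p the median was 0.29, above its own 0.15. For miR-34-3p the median was 0.26 against 0.41, and for miR-317-5p -0.23 against -0.50. With these medians taken off, the log2 arm shift was 0.64 in mir-317, 0.60 in mir-277 and 0.22 in mir-34.

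**Figure D4:**
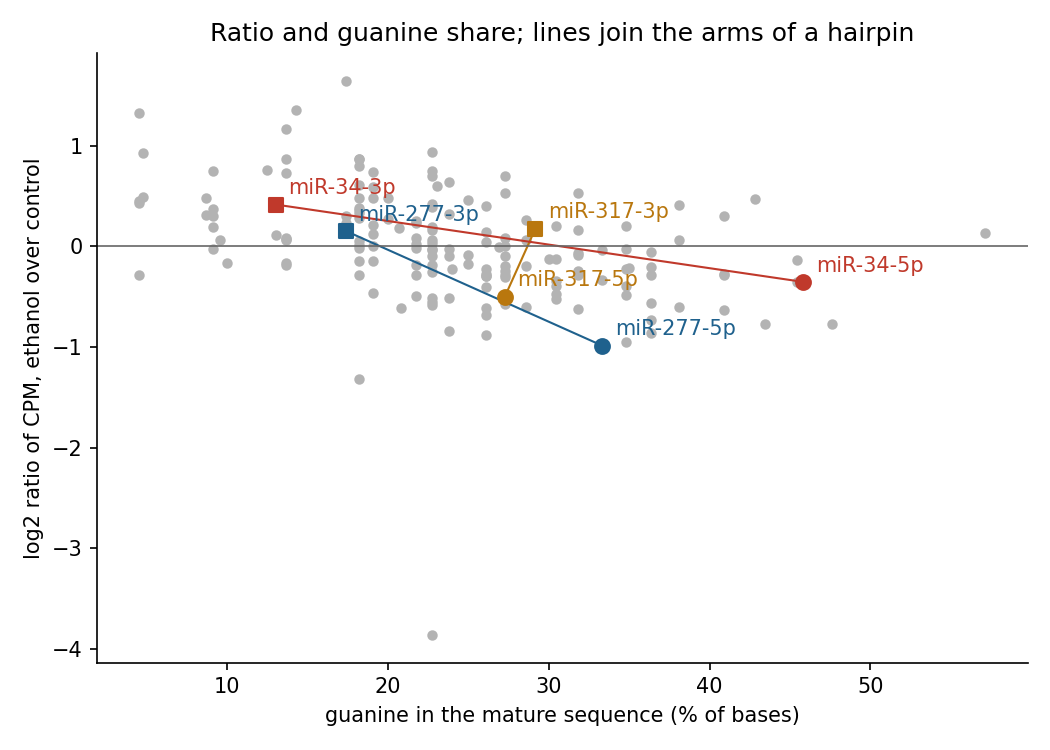
Log2 ratio of CPM, ethanol over control, against the percentage of guanine in the mature sequence for the 168 compared products; coloured circles are 5p and coloured squares 3p arms, and a line joins the arms of each hairpin. The lines of mir-34 and mir-277 slope down from a 3p arm poor in guanine to a 5p arm richer in it, while the arms of mir-317 differ by 1.89 points of guanine and stand one above the other.

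In the authors' deposited table, which compares RPM over all reads of each library, miR-277-5p was the only member marked as different. It had 1301 and 620 RPM there, a log2 ratio of -1.07, and a p-value listed as 0. The authors' deposited table marks 14 of 196 products (7.14%), and 7 of the 14 were lower in the ethanol library. The other 5 members had log2 ratios between -0.58 and 0.33 in the authors' deposited table and no mark. Their p-values, from a test that the sources do not give, were 1.91e-07 or less. That of miR-34-5p was also listed as 0, so the p-value alone did not set the marked member apart. Those p-values compare a pair of libraries and hold no spread between samples.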

How the data were processed

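Small RNA of 18 to 30 nt from fly heads was sequenced on an Illumina HiSeq instrument, per the labels' protocols. The authors deposited, per library, raw read counts per mature miRNA, a library total and RPM over that total, which recomputed values matched within 4.9e-05; a further deposited table gives the log2 ratio of RPM and a p-value whose test the sources do not give. Per the submitters' processing notes the genome build was BDGP5; which aligner and counter were used is not given in the sources. Only products with at least 5 reads are listed, so an absent product may have fewer.

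For names listed more than once the largest count was kept, and identical sequences were used once. Counts were scaled to CPM over 13692046 control and 13128478 ethanol reads of known miRNAs, and products with 100 or more reads over both libraries were compared. Ratios carry exact conditional binomial (Clopper-Pearson) 95% intervals, arm and pair ratios exact conditional intervals of the odds ratio. Both were tested on simulated data drawn as independent (Poisson) counts. This checks the computation and cannot show whether the intervals hold for reads that are not independent. "Called" means past 2-fold; with 1 library per group no p-value was computed. edgeR 4.0.16 TMM and DESeq2 1.42.0 size factors (R 4.3.3) gave alternative scalings. Duplexes were folded with RNAcofold of ViennaRNA 2.7.2; other steps used Python 3.11.15, pandas 2.3.3 and SciPy 1.17.1. Names and neighbours came from the Ensembl BDGP6 annotation and RefSeq.

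All members were named. Further names were the most abundant and the farthest product of the list of 9 hairpins, the 3 non-member products most like each abundant arm, and the fixed markers. Named outside this rule, after their values were seen, were bantam-3p and miR-125-5p, and after the sequence search miR-12-5p, miR-133-5p and miR-283-5p. The members, lists and thresholds were chosen with earlier results of these data known. The table of candidate miRNA comparisons was not used here.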

Additional observations from a re-analysis of the deposited data

How the results depend on the processing

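Values are log2 ratios, ethanol over control, unless stated. No sign of a member's ratio changed with the scaling. Another scaling moved every ratio alike, by -0.12 at most (a total without the 4 products above 10% of reads, which took the median of all products from -0.020 to -0.14). In the order miR-34-5p, miR-34-3p, miR-277-5p, miR-277-3p, miR-317-5p, miR-317-3p, that total gave -0.48, 0.29, -1.11, 0.030, -0.62 and 0.053, and the authors' RPM gave -0.44, 0.33, -1.07, 0.069, -0.58 and 0.092. A total without the 3 hairpins gave -0.39 for miR-34-5p, -1.02 for miR-277-5p, 0.12 for miR-277-3p and 0.14 for miR-317-3p. edgeR's TMM gave -0.38 for miR-34-5p, 0.12 for miR-277-3p and 0.15 for miR-317-3p, and DESeq2's size factors -0.33 for miR-34-5p and 0.19 for miR-317-3p. miR-277-5p was thus past 2-fold under RPM, TMM (-1.02) and both reduced totals. Of all 168 products, 8 were past 2-fold either way under RPM and 7 under TMM. The total without products above 10% gave 9 of 168, and that without the 3 hairpins 7. The summed level of the 3 hairpins (-0.32) was -0.40 with RPM, -0.35 with TMM, -0.30 with DESeq2's factors, -0.44 and -0.36 with the reduced totals, and 0.021 without miR-34-5p, since that product holds most of the reads.

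Less the median of products nearest in guanine, the members stood at -0.071, 0.15, -0.74, -0.14 (reversed), -0.27 and 0.37 in the same order. The arm shift was then 0.60 in mir-277 (1.14 before) and 0.22 in mir-34 (0.77 before). The change of miR-277-3p over miR-34-5p became -0.071 (0.51 before), that of miR-317-3p over miR-34-5p 0.44 (0.53 before) and that of miR-317-3p over miR-277-3p 0.51 (0.023 before). The cause was not tested. The count of products 2-fold lower (2) was 4 with RPM, 5 without the products above 10%, and 5 with a minimum of 10 reads or none; that of products 2-fold higher (4) was 7 with a minimum of 10 reads or none. Summing copies moved none of the 6 members' ratios beyond its counting interval, and adding 0.5 to each count, run for the arm and pair ratios alone, moved none of those 6. No paired analysis was possible because each group has 1 library.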
